A study of Macaca fascicularis with 20 samples.

Results

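miR-132 and miR-212 are a pair of neuronal microRNAs that are cut from the same non-coding transcript. They were taken here as the rows named mir-132 and mir-212 of the count tables, with their 5p and 3p arms, which gave 4 arms of the 1656 arms listed in both tables. All 4 passed the filter on low counts, so they were among the 1139 arms tested. The rows were picked by name, with earlier results of these data known.

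The locus is known as a target of the transcription factor CREB, which neurons activate when calcium enters during synaptic activity. In rodent neurons miR-132 promotes the growth of dendrites and spines. In the visual cortex of the mouse, light and eye opening raise miR-132, and it takes part in ocular dominance plasticity. The 3p arms of both miRNAs are the usual guide strands and share a seed, the stretch that pairs with target mRNAs, while the 5p arms are often treated as passenger strands. Fetal cortex of the age studied here comes before visual experience. Synaptic activity was not measured in these samples.

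The libraries hold small RNA from laser-cut regions of the fetal visual cortex of the crab-eating macaque, Macaca fascicularis. The 7 regions were the ventricular zone (VZ_17 and VZ_18), where radial glia divide, the outer subventricular zone (OSVZ_17int, OSVZ_17ext and OSVZ_18), a thick germinal layer of primates, and the cortical plate (CP_17 and CP_18), where young neurons settle, in areas 17 and 18. OSVZ_17int was the apical and OSVZ_17ext the basal part of the area 17 OSVZ. Each region had 1 library from embryonic day 80 (set 1, replicate 1) and 1 from embryonic day 79 (set 2, replicate 2), so that VZ and CP had 4 libraries each and OSVZ had 6, with no treatment or altered genotype in any of them. The sources do not say if all libraries of a set share an animal, and the p-values rest on the spread among 14 libraries, which may in part be technical.

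Library totals ran from 3603478 to 9517217 counts. Levels of miR-92b, a radial glia miRNA, and of a neuronal list describe the zones. Both were chosen with earlier results of these data known, so they do not check the labels independently. Both arms of miR-92b summed to between 25995 and 52642 CPM (counts scaled to a common library size by the TMM method) in VZ. In OSVZ they summed to between 13699 and 25541 and in CP to between 523 and 1098. The 16 listed arms of other neuronal miRNAs summed to 2689 to 4085 CPM in VZ, 2386 to 5357 in OSVZ and 13806 to 20890 in CP. One defining brain miRNA was nearly missing, since miR-124-3p had at most 19 counts in any library. miR-124 comes from several loci, and how reads with several matches were counted is not known here, so this low count does not show that it was absent from the tissue. In pieces of tissue such as these, fewer cells of a type and less RNA per cell cannot be told apart.

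miR-132-3p, the main guide strand of the pair, was the most abundant of the 4 arms in every library and stood highest in the cortical plate. Its level was 356 and 726 CPM in CP_17 (replicates 1 and 2) and 364 and 767 CPM in CP_18. In the VZ it was 142 and 104 CPM in area 17 and 116 and 186 CPM in area 18. In the 6 OSVZ libraries the lowest level was 79.9, the median 159 and the highest 267 CPM. All 4 CP libraries thus lay above all 10 libraries of the germinal zones, as was the case for 4.04% of the tested arms, while 1.49% had all CP libraries below. Ranked by level among the 1656 arms, miR-132-3p stood between places 73 and 109 in CP and between 111 and 180 in the germinal zones.

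miR-132-5p, the opposite strand of the same hairpin, showed a wider gap between zones. It stood at 176 and 168 CPM in CP_17 and at 193 and 364 CPM in CP_18. In VZ_17 it was at 26.0 and 11.1 CPM and in VZ_18 at 38.0 and 33.7 CPM. The OSVZ libraries had a lowest level of 20.5, a median of 33.0 and a highest of 45.9 CPM. Again no germinal library reached the lowest CP library.

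**Figure D1:**
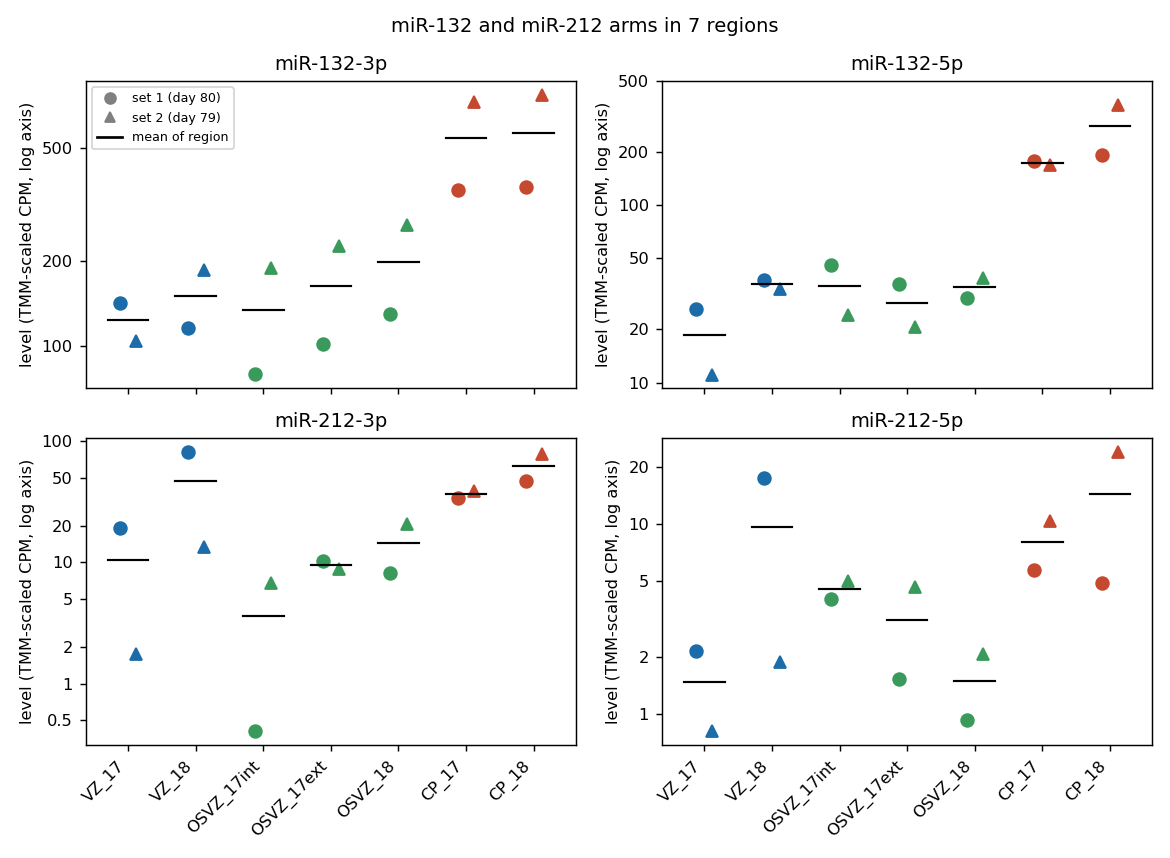
Levels of the 4 arms in TMM-scaled CPM (log axis) by region, with circles for set 1, triangles for set 2 and a bar for the mean of a region (n = 2). Both miR-132 arms are higher in all 4 CP libraries than in all 10 germinal libraries, while VZ_18 replicate 1 reaches 81.2 CPM of miR-212-3p and 17.5 CPM of miR-212-5p.

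Both arms of miR-132 were lower in VZ than in CP. The log2 difference was -1.89 ± 0.42 (SE) for miR-132-3p, which is 3.71-fold, with 553 ± 224 CPM (SD, n = 4) in the cortical plate and 137 ± 36.0 CPM (SD, n = 4) in the ventricular zone, with an adjusted p of 0.00214 by edgeR's quasi-likelihood test with Benjamini-Hochberg adjustment over all arms. For miR-132-5p it was -3.14 ± 0.53, which is 8.79-fold, with 225 ± 93.2 and 27.2 ± 11.8 CPM, with an adjusted p of 6.59e-05 in the same edgeR fit. Of all tested arms, 7.37% were called here (an adjusted p under 0.05), 4.74% as lower and 2.63% as higher in VZ. Scaled by library totals, 32 arms were lower and 37 higher, in place of 54 and 30, and both miR-132 arms were still called lower (-1.43 and -2.65). Within set 1 alone the differences were -1.48 for the 3p and -2.51 for the 5p arm, and within set 2 they were -2.41 and -3.60, on log2(CPM + 1).

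The outer germinal layer gave the same picture. miR-132-3p was lower in OSVZ than in CP by -1.70 ± 0.38 (SE) on the log2 scale, at 165 ± 73.5 CPM (SD, n = 6) in OSVZ, with an adjusted p of 0.0026 in edgeR. miR-132-5p was lower by -2.76 ± 0.48, at 32.6 ± 9.55 CPM in OSVZ, with an adjusted p of 0.000117. Of all tested arms 6.32% were called, 4.21% as lower and 2.11% as higher in OSVZ, or 34 and 38 arms when scaled by library totals, in place of 48 and 24. Both comparisons share the 4 CP libraries. The call of miR-132-3p in OSVZ was lost without OSVZ_18 replicate 2 (-1.63, adjusted p = 0.0612 in edgeR).

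The levels of the neuronal list moved with these differences, and those of miR-92b moved the other way. Of its 15 tested arms, 6 were lower in VZ and 8 were lower in OSVZ, with 0 higher in either, and the median log2 difference was -1.70 and -2.24, where the median of all tested arms was -0.22 and -0.20. What part the share of neurons has in the levels of miR-132 was not tested.

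miR-212-3p, which shares its seed with miR-132-3p, was scarcer and more uneven. Its counts ran from 2 to 872 in a library. It was at 33.8 and 39.2 CPM in CP_17 and at 46.7 and 78.4 CPM in CP_18. The OSVZ libraries had a lowest level of 0.405, a median of 8.55 and a highest of 21.0 CPM. CP and OSVZ thus did not overlap, but how many of all tested arms have such a gap was not counted. In VZ_17 miR-212-3p was at 19.4 and 1.76 CPM and in VZ_18 at 81.2 and 13.5 CPM. VZ therefore held both the highest value of all 14 libraries and one of the lowest.

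Its mean was 49.5 ± 20 CPM in CP (SD, n = 4), 9.26 ± 6.69 in OSVZ (SD, n = 6) and 29.0 ± 35.6 in VZ (SD, n = 4). Neither arm of miR-212 was called in a comparison with CP. For miR-212-3p the log2 difference from CP was -1.11 ± 0.92 (SE) in VZ, with an adjusted p of 0.496 in edgeR and a 95% interval from -2.97 to 0.76. In OSVZ it was -2.36 ± 0.82, with an unadjusted p of 0.00666 and an adjusted p of 0.0893 in edgeR, and an interval from -4.02 to -0.70. The OSVZ difference was called without OSVZ_17int replicate 2 (-3.16, adjusted p = 0.0164), without VZ_17 replicate 1 (-2.32, adjusted p = 0.0187) and without VZ_17 replicate 2 (-2.33, adjusted p = 0.0137). The VZ difference moved to -1.76 without VZ_18 replicate 1, to -2.47 without VZ_17 replicate 1 (adjusted p = 0.0706) and to -0.26 without VZ_17 replicate 2, and was called in none of these. Both intervals of miR-212-3p include the difference measured for miR-132-3p. Within sets the VZ difference was 0.0052 in set 1 and -3.16 in set 2, and the OSVZ difference was -2.75 and -2.02, on log2(CPM + 1).

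miR-212-5p was the least abundant arm, with between 6 and 188 counts in a library. It was at 5.75 and 10.4 CPM in CP_17, at 4.87 and 23.9 CPM in CP_18, at 2.15 and 0.812 CPM in VZ_17 and at 17.5 and 1.89 CPM in VZ_18. The OSVZ ran from 0.927 to 5.03 CPM with a median of 3.05 CPM, and its highest library lay above the lowest CP library. The log2 difference from CP was -1.31 ± 1.35 (SE) in VZ and -2.15 ± 1.18 in OSVZ, with adjusted p of 0.593 and 0.397 in edgeR. With single libraries left out the VZ difference ran from -2.42 (without VZ_18 replicate 1) to -0.61 (without VZ_17 replicate 2), and the OSVZ difference was -1.40 without CP_18 replicate 2. Within sets the VZ difference was 0.28 in set 1 and -2.88 in set 2.

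**Figure D2:**
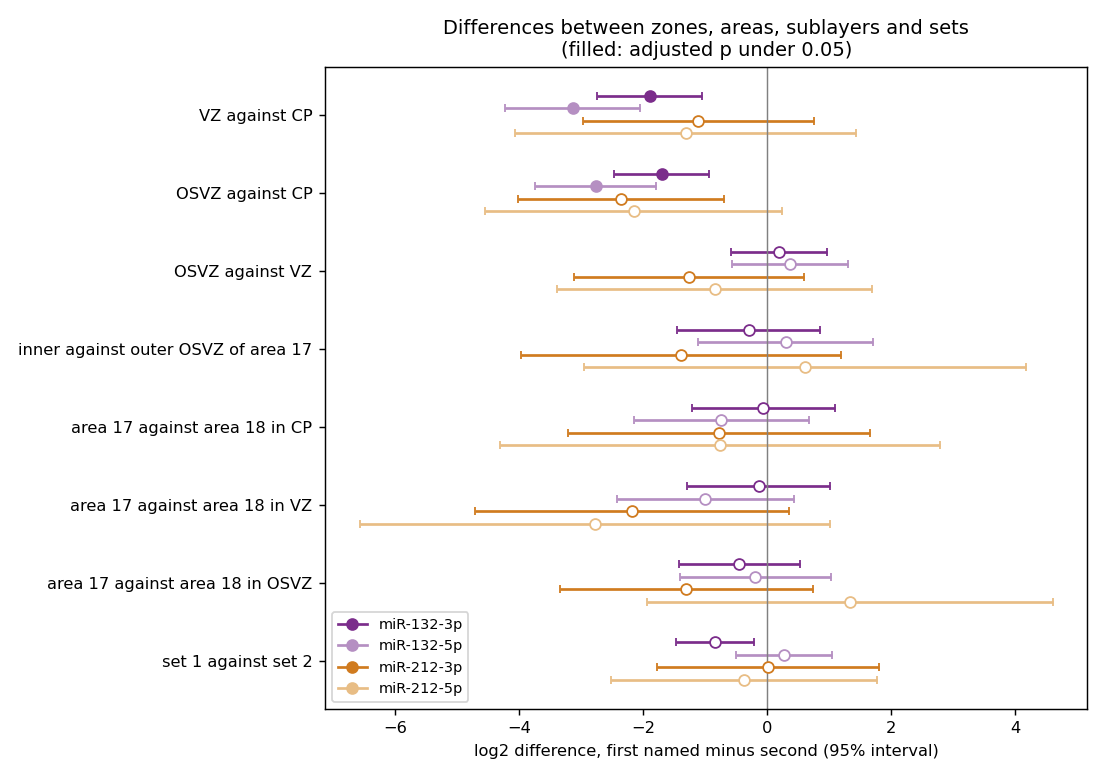
Log2 differences of the 4 arms (first named minus second) with 95% intervals from the edgeR fit, where filled points have an adjusted p under 0.05. The filled points are the miR-132 arms in VZ and OSVZ against CP, from -3.14 to -1.70, and the intervals of the miR-212 arms are the wider ones in each comparison.

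Ordered by mean level, the regions ran for miR-132-3p from CP_18 (566 CPM) and CP_17 (541) over OSVZ_18 (199), OSVZ_17ext (163), VZ_18 (151) and OSVZ_17int (134) to VZ_17 (123). Of the neighbours in this order, the pairs of libraries overlapped in each case except between CP_17 and OSVZ_18. For miR-132-5p the order was CP_18 (278 CPM), CP_17 (172), VZ_18 (35.8), OSVZ_17int (34.9), OSVZ_18 (34.5), OSVZ_17ext (28.2) and VZ_17 (18.6), with gaps below CP_18 and below CP_17 and overlap elsewhere. For miR-212-3p it was CP_18 (62.6 CPM), VZ_18 (47.4), CP_17 (36.5), OSVZ_18 (14.6), VZ_17 (10.6), OSVZ_17ext (9.59) and OSVZ_17int (3.60), with gaps below CP_17 and below OSVZ_17ext. For miR-212-5p it was CP_18 (14.4 CPM), VZ_18 (9.70), CP_17 (8.06), OSVZ_17int (4.54), OSVZ_17ext (3.11), OSVZ_18 (1.49) and VZ_17 (1.48), with a gap below CP_17 alone.

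Between the germinal layers no difference of miR-132 was called. OSVZ against VZ gave 0.19 ± 0.38 (SE) for miR-132-3p, with a 95% interval from -0.58 to 0.96, and 0.37 ± 0.46 for miR-132-5p, with an interval from -0.57 to 1.31. For miR-212-3p it gave -1.26 ± 0.91 and for miR-212-5p -0.84 ± 1.25. Single libraries turned several of these: without VZ_17 replicate 1 miR-212-3p was at 0.15, without VZ_17 replicate 2 it was at -2.06 and miR-132-3p at -0.21, and without VZ_18 replicate 1 miR-212-5p was at 0.45. None of the 4 arms was called, and 0.0878% of all tested arms were. The direction differed between sets for miR-132-3p (-0.25 in set 1 and 0.75 in set 2), miR-212-3p (-2.76 and 1.13) and miR-212-5p (-1.54 and 0.89).

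Areas 17 and 18, which become the primary and the secondary visual cortex, were compared within each zone. In CP the difference of area 17 from area 18 was -0.06 ± 0.57 (SE) for miR-132-3p and -0.74 ± 0.69 for miR-132-5p, with 95% intervals from -1.21 to 1.09 and from -2.15 to 0.67. The latter was 0.087 without CP_18 replicate 2 and -1.30 without CP_18 replicate 1, and the former lay between -0.19 and 0.15 with any 1 library left out. In VZ the largest differences were those of miR-212, at -2.17 ± 1.25 for the 3p and -2.78 ± 1.87 for the 5p arm, with unadjusted p of 0.0903 and 0.146 in edgeR. Without VZ_18 replicate 1 these turned to 0.24 and 0.45. Within set 1 and set 2 they were -2.01 and -2.39 for the 3p and -2.55 and -0.67 for the 5p arm, on log2(CPM + 1). On that scale miR-212-3p was lower in area 17 in both sets in OSVZ (-1.21 and -1.32) and CP (-0.45 and -0.98) too. miR-212-5p was at 0.89 and 0.94 in OSVZ and at 0.20 and -1.13 in CP. In OSVZ, miR-132-3p was at -0.44 ± 0.48 and miR-212-3p at -1.30 ± 1.0, the latter between -3.24 without OSVZ_17int replicate 2 and -0.38 without OSVZ_18 replicate 2. No member was called for area in any zone. The share of all tested arms called was 0.176% in VZ, while in CP and OSVZ edgeR called 0 arms, with 36 and 29 at an unadjusted p under 0.05, and DESeq2 called 3 and 0.

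Whether the gap between CP and the germinal zones differed between areas was tested as an interaction. It was 0.23 ± 0.68 (SE) for miR-132-3p, -0.14 ± 0.83 for miR-132-5p, 0.96 ± 1.43 for miR-212-3p and -0.04 ± 2.18 for miR-212-5p. None was called. By both edgeR and DESeq2 0 of all tested arms were called, with 40 at an unadjusted p under 0.05 in edgeR.

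The inner and outer sublayers of the area 17 OSVZ gave no call for any arm. miR-132-3p was at 79.9 and 188 CPM in the inner and at 102 and 225 CPM in the outer sublayer, a log2 difference of -0.29 ± 0.57 (SE), with the inner sublayer lower in both sets. miR-212-3p was at 0.405 and 6.80 CPM in the inner and at 10.3 and 8.88 CPM in the outer sublayer (-1.39 ± 1.27), and the gap was -0.26 without OSVZ_17int replicate 1 and -5.01 without OSVZ_17int replicate 2, called in neither case. Over all tested arms edgeR called 0 here, with 46 at an unadjusted p under 0.05, and DESeq2 called 2.

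The 5p and 3p arms of miR-132 come from the same hairpin, so their ratio within a library does not depend on how libraries are scaled. The 3p arm was the more abundant in all 14 libraries, by 1.74-fold to 10.9-fold. The ratio was lower in CP, with log2 values of 1.01 and 2.11 in CP_17 and 0.92 and 1.07 in CP_18, a mean of 1.28 ± 0.56 (SD, n = 4). It was 2.43 ± 0.66 (SD, n = 4) in VZ and 2.27 ± 0.99 (SD, n = 6) in OSVZ. The difference of CP from VZ was -1.15 (exact two-sided permutation test over libraries, p = 0.0571, adjusted p = 0.286 over 8 ratio tests), and that of CP from OSVZ was -0.99 (exact p = 0.119, adjusted p = 0.286). The smallest p the first design allows is 0.0286. With permutation within sets, p was 0.0556 and 0.04 and the adjusted p of both was 0.222. For CP against VZ, 0.0556 is the smallest p that permutation within sets can give, so that test could not fall under 0.05. Whether the 5p arm fell more steeply than the 3p arm was not decided by these tests.

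That ratio also differed between sets. In every region it was higher in set 2 than in set 1, with a median log2 difference of 0.85 and a range from 0.15 to 2.17 over the 7 regions. Of the 101 miRNAs with both arms tested and at least 10 CPM each, 3 were higher in set 2 in all 7 regions (2.97%). In set 1, 4 were higher in all 7 regions, and the median over the 101 was -0.03. By median log2 difference of set 2 from set 1, miR-132 stood at place 18 of the 101. Within set 2 the log2 ratio of both CP libraries, 1.07 and 2.11, lay below the 5 germinal ones, which began at 2.46. Within set 1 the CP values of 0.92 and 1.01 lay below 4 of the 5 germinal ones, the exception being OSVZ_17int replicate 1 at 0.80. How many of the 101 miRNAs have such gaps between CP and germinal libraries was not counted. The comparison of sets was chosen after its values were seen. Set and embryonic day, and any handling of a set, cannot be told apart.

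**Figure D3:**
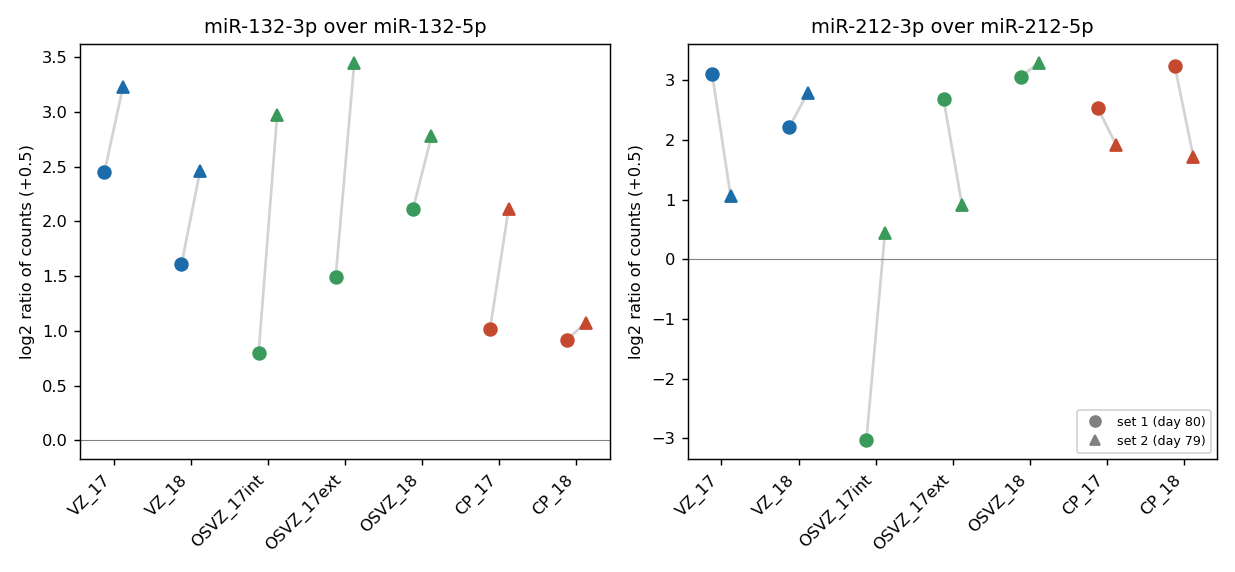
Log2 ratio of 3p to 5p counts (0.5 added to each) by region for miR-132 (left) and miR-212 (right), with lines joining the sets of a region. For miR-132 the set 2 triangle is above the set 1 circle in all 7 regions, and for miR-212 OSVZ_17int replicate 1 lies below 0 at -3.04.

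By level, miR-132-3p was higher in set 2 in 6 of 7 regions, VZ_17 being the exception, and 11.5% of all tested arms were higher there in at least 6 regions. The fitted difference of set 1 from set 2 was -0.83 ± 0.31 (SE), with an adjusted p of 0.119 in edgeR, while miR-132-5p was at 0.27 ± 0.38, miR-212-3p at 0.02 ± 0.88 and miR-212-5p at -0.37 ± 1.06. Of all tested arms, 5.09% were called between sets, 3.42% as higher and 1.67% as lower in set 1. Composition moved with the set, since miR-130b-3p took 2.44% to 25.5% of the counts in set 1 and 0.263% to 0.44% in set 2. The difference of miR-132-3p was -1.63 when scaled by library totals (adjusted p = 0.00186), a scaling under which the median of all tested arms was -0.81, and it was called too without VZ_17 replicate 1 (-1.08, adjusted p = 0.0296) or VZ_17 replicate 2 (-1.16, adjusted p = 0.0113). What part composition has in it was not tested.

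The balance between the miRNAs was measured on the 3p arms that share a seed. Together they stood at 603 ± 236 CPM in CP (SD, n = 4), 166 ± 43.5 CPM in VZ (SD, n = 4) and 175 ± 78.7 CPM in OSVZ (SD, n = 6). miR-212-3p supplied 5.12% to 11.4% of this sum in CP and 0.504% to 9.2% in OSVZ. In VZ it supplied 12% and 1.66% in area 17 and 41.2% and 6.78% in area 18. By counts, miR-132-3p thus made up most of this sum in all 14 libraries. The log2 ratio of miR-132-3p to miR-212-3p was 3.46 ± 0.53 (SD, n = 4) in CP, 3.25 ± 2.21 (SD, n = 4) in VZ and 4.61 ± 1.44 (SD, n = 6) in OSVZ, with exact permutation p of 0.8 for CP against VZ and 0.143 for CP against OSVZ (adjusted p = 0.914 and 0.286). For the 5p arms it was 4.53 ± 0.66, 3.11 ± 1.35 and 3.57 ± 1.18, with exact p of 0.0857 and 0.195 (adjusted p = 0.286 and 0.312). For miR-212 the ratio of 3p to 5p was 2.35 ± 0.69 in CP, 2.29 ± 0.90 in VZ and 1.22 ± 2.39 in OSVZ, with exact p of 0.943 and 0.462 (adjusted p = 0.943 and 0.616).

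**Figure D4:**
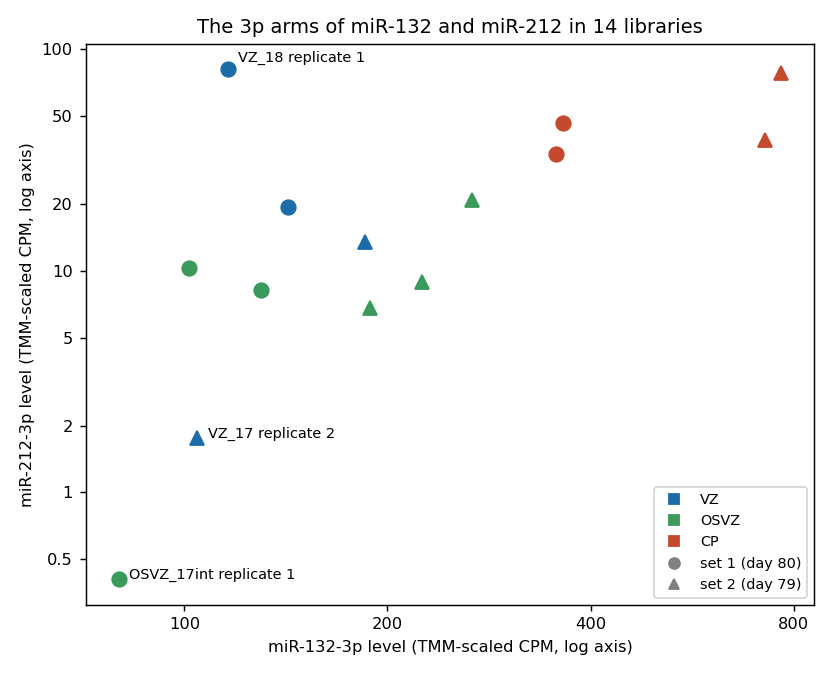
Levels of miR-132-3p (x axis) and miR-212-3p (y axis) in TMM-scaled CPM, both on log axes, one point per library. The CP libraries lie at the upper right, and VZ_18 replicate 1 (116 and 81.2 CPM) stands above the other germinal libraries.

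miR-212 was uneven between sets in several regions. For miR-212-3p the difference of set 1 from set 2 was 2.88 in VZ_17, 2.50 in VZ_18 and -2.47 in OSVZ_17int, on log2(CPM + 1). For miR-212-5p it was 0.80 in VZ_17, 2.68 in VZ_18 and -2.08 in CP_18. VZ_18 replicate 1 had the highest miR-212-3p level of all 14 libraries. It had 872 counts of miR-212-3p and 188 of miR-212-5p, 7.04-fold and 10.8-fold the mean CPM of the other 3 VZ libraries, while miR-132-3p was at 0.804-fold and miR-132-5p at 1.61-fold. Erythroid arms summed to 334 CPM there, against 55.9 to 128 CPM in the other VZ libraries, 18.9 to 103 CPM in OSVZ and 27.5 to 126 CPM in CP. Myeloid and lymphoid arms summed to 631 CPM there, against 217 to 549 CPM in the other VZ libraries, 146 to 303 CPM in OSVZ and 50.6 to 81.5 CPM in CP. Of the listed arms, 4 of 6 erythroid and 5 of 6 myeloid and lymphoid ones were highest in this library among VZ libraries, where 32.2% of all tested arms were. In this library 1 of the erythroid and 0 of the myeloid and lymphoid arms were at 0 counts. Their part in the level of miR-212 was not tested.

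At the other end, OSVZ_17int replicate 1 had 2 counts of miR-212-3p (95% Poisson interval from 0.242 to 7.22 counts, for counting error only) beside 20 of miR-212-5p. It was the 1 library in which the 5p arm of miR-212 exceeded the 3p arm. Its endothelial arms, at 5289 CPM, and its mural and mesenchymal arms, at 4912 CPM, were the highest of the OSVZ. The lowest OSVZ sums were 1434 and 1410 CPM. Endothelial arms were also at 4197 and 4802 CPM in OSVZ_17ext and OSVZ_18 of set 1, which had 67 and 62 counts of miR-212-3p. In set 2 the endothelial arms of OSVZ ran from 1434 to 1535 CPM. The part of these arms in the miR-212-3p value was not tested.

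Across the 14 libraries the 4 arms varied together to different degrees. Pearson's r of log2(CPM + 1), as a description of libraries that share sets and zones, was 0.80 between the arms of miR-132, 0.68 between the 3p arms of miR-132 and miR-212, and 0.65 between the arms of miR-212. Without VZ_18 replicate 1, over 13 libraries, these were 0.81, 0.86 and 0.57. Over 376 other arms whose mean reached 10 CPM, those most like miR-132-3p were miR-204-5p (r = 0.87), miR-487b-3p (0.86), miR-326-3p (0.85), miR-708-5p (0.84) and miR-495-3p (0.82). Those most like miR-212-3p were miR-628-5p (0.84), miR-425-5p (0.82), miR-380-3p (0.81), miR-376c-3p (0.77) and miR-3200-3p (0.76).

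The zone profiles of these arms differed in depth. miR-326-3p ran from 51.6 ± 22.8 CPM in VZ over 147 ± 40.5 in OSVZ to 617 ± 64.5 in CP (SD, n = 4, 6 and 4), and miR-487b-3p from 121 ± 32.9 over 107 ± 26.1 to 416 ± 177 CPM. By contrast miR-425-5p, the second most like miR-212-3p, had nearly level zone means of 652 ± 275, 564 ± 158 and 655 ± 84.6 CPM, and reached 1047 CPM in VZ_18 replicate 1.

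Other miRNAs that are known to respond to neuronal activity were taken as a list of 13 miRNAs with 26 arms, of which 22 were tested. Few of them were called against CP in edgeR, too few to set their shares apart from those of all tested arms. In VZ against CP, 1 was lower, 1 was higher and 20 were not called, where 4.74% of all tested arms were lower and 2.63% higher. The median log2 difference was 0.02 in the list and -0.22 over all arms. DESeq2 called 4 of the list lower and 3 higher here, in a fit that called 169 arms in all where edgeR called 84. The lower one was miR-138-5p, a regulator of dendritic spines in rat neurons (-3.63 ± 0.39, SE), with 326 ± 170 CPM in the ventricular zone and 4034 ± 1770 CPM in the cortical plate (SD, n = 4 each). The higher one was miR-219-3p (2.80 ± 0.72, SE), with 83.9 ± 60.7 and 12.9 ± 7.40 CPM, and it was not called without VZ_18 replicate 1, CP_17 replicate 1 or CP_18 replicate 1. Without VZ_17 replicate 1, 2 arms were lower and 2 higher.

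In OSVZ against CP, miR-138-5p (-3.42 ± 0.36, SE) and miR-138-3p (-2.18 ± 0.53) were lower, 0 arms were higher and 20 were not called, where 4.21% of all tested arms were lower and 2.11% higher. The median was -0.89 in the list and -0.20 over all arms. DESeq2 called 4 lower and 2 higher, in a fit that called 120 arms in all where edgeR called 72. The number lower fell to 1 without CP_17 replicate 1, OSVZ_18 replicate 1 or OSVZ_18 replicate 2, and 1 arm was higher without VZ_17 replicate 1. In OSVZ against VZ edgeR called 0 of the 22, and 1 arm, miR-182-5p (-1.79 ± 0.81, SE), had an unadjusted p under 0.05. Counts of some listed miRNAs were too low for a comparison, as for miR-135a-5p with at most 5 counts in a library.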

How the data were processed

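Small RNA counts of 14 libraries were analysed, 2 for each of 7 regions. Per the labels' protocols, tissue was cut with a UV laser, RNA was isolated with a Qiagen kit and DTT, and size-selected libraries were made with a SOLiD kit. The tables deposited by the authors hold whole read counts of the 5p and 3p arm under each miRNA name. The labels and headers used here do not name an aligner, a build or an annotation release, nor how strand and reads with several matches were treated. Hairpin positions and sequences were not used here. A table was tied to a set through the spelling of its region names and the presence of VZ_18. Another 12 value columns, of 6 libraries, could be tied to no label and stayed out. Of the 20 labelled samples, 6 are not analysed here.

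The 828 names in both tables gave 1656 arms, of which filterByExpr by region kept 1139 with 99.99% of the counts. Counts were scaled with TMM and fitted on 7 region means by the quasi-likelihood test of edgeR (version 4.0.16, under R 4.3.3), with the set as a block (6 residual and 28.1 prior degrees of freedom). For OSVZ, both areas had equal weight, and within area 17 both sublayers. SE is the log2 difference divided by the square root of F. P-values were adjusted by Benjamini-Hochberg over all 1139 arms. DESeq2 1.42.0 served as an alternative. The edgeR fit was also run on simulated counts, drawn independently for each library and without a set effect. That run cannot show how the p-values hold where libraries of a set vary together. The block follows the labels, which give each set its own embryonic day. As a check, deviations from region means correlated between libraries of a set at a median Pearson r of 0.354, and 20 of the 21 region pairs exceeded 0.1.

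Log2 ratios within a library used counts with 0.5 added and were compared by exact two-sided permutation. The labels name no molecular identifiers, so reads may be PCR copies and counting intervals cover counting error only. Members and lists (activity-linked, neuronal, radial glia, erythroid, myeloid and lymphoid, endothelial, mural and mesenchymal) were chosen with earlier results of these data known. Named were the 4 arms, the 5 arms most like each 3p arm and up to 4 called activity-linked arms per comparison with a mean of at least 10 CPM. Of the 9 neuronal miRNAs, 8 were found in the tables. Other arms and libraries named were chosen after their values were seen.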

Additional observations from a re-analysis of the deposited data

Results flagged for a closer look

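Dixon's 95% limit was applied to 24 groups of 4 or 6 libraries. These were the 4 arms and the 4 log2 ratios in VZ, OSVZ and CP. In 4 groups a library lay farther from the rest than this limit allows. Chance gives about 1 in 20 groups if they are independent and of normal spread. The ratios reuse the counts of the 4 arms, so these groups are not independent. miR-212-5p in VZ was at 17.5 CPM in VZ_18 replicate 1. miR-132-5p in CP was at 364 CPM in CP_18 replicate 2. The log2 ratio of miR-132-3p to miR-212-3p in OSVZ was 7.31 in OSVZ_17int replicate 1, which has 2 counts of miR-212-3p. The log2 ratio of miR-132-3p to miR-132-5p in CP was 2.11 in CP_17 replicate 2.

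For miR-212-5p the difference between areas 17 and 18 had opposite directions in VZ and OSVZ in both sets, with a mean log2 difference of -1.61 in VZ and 0.915 in OSVZ on log2(CPM + 1). The difference between these differences was not tested, and neither was called in edgeR. The VZ value rests on few counts, 10 in VZ_17 and 188 in VZ_18 in set 1, and 6 and 13 in set 2. Without VZ_18 replicate 1 the fitted difference in VZ turned to 0.45.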

How the results depend on the processing

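Of 891 pairs of a result and an alternative, over 44 results, 879 kept the direction of a called value and the side of the threshold, 2 lost a call, 10 gained one and 0 reversed. miR-132-5p was called against CP in VZ and in OSVZ under every alternative, from -3.48 to -2.65 and from -3.05 to -2.36. miR-132-3p in VZ was called from -2.37 to -1.42 with any 1 library left out, and lost its call without VZ_18 replicate 1 and VZ_17 replicate 2 together (-1.43, adjusted p = 0.0534), a setting chosen after seeing the data. In OSVZ it ran from -1.77 to -1.53 with single libraries left out. miR-212-3p in OSVZ ran from -3.16 to -1.96 with single libraries left out and was -2.33 (adjusted p = 0.00833) without those 2 libraries together. miR-132-3p between sets was -0.93 with arms of at least 10 CPM (adjusted p = 0.0438), -0.87 with DESeq2 (adjusted p = 0.0212), -1.63 with library totals and -1.06 without those 2 libraries (adjusted p = 0.0317), and ran from -1.16 to -0.75 with single libraries left out. For these, unless said otherwise, the cause was not tested.

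Without the replicate block, miR-132-3p was -2.02 in VZ (adjusted p = 0.0233) and -1.69 in OSVZ (adjusted p = 0.0414) against CP, and the block changed no call of the 4 arms. Over all arms it moved the calls of VZ against CP from 53 to 84. Scaling by TMM, DESeq2 size factors and library totals placed the median of all tested arms at -0.22, 0.02 and 0.21 for VZ against CP, where 30, 34 and 37 arms were higher and 54, 42 and 32 lower. For OSVZ against CP the arms higher were 24, 35 and 38 and those lower 48, 44 and 34. Over all alternatives the number of arms called ran from 53 to 169 for VZ against CP (84 in the fit reported), 43 to 125 for OSVZ against CP (72), 0 to 28 for OSVZ against VZ (1), 0 to 6 for the OSVZ sublayers (0), 0 to 26 for area in VZ (2), 0 to 3 for area in CP (0), 0 to 13 for the interaction (0) and 29 to 181 between sets (58). miR-212-5p has no value with arms of at least 10 CPM, since it lies under that mean. With 6 to 188 counts of miR-212-5p in a library, depth limits what its comparisons can show.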
